A study of Mus musculus with 6 samples.

Results

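The genes described here encode the thioredoxin, peroxiredoxin and sulfiredoxin system, with glutaredoxin beside it. They are Txn1, Txn2, Txnrd1, Txnrd2, Srxn1, Prdx2, Prdx3, Prdx4, Prdx5 and Glrx. Probe sets were taken where the platform annotation gave exactly 1 gene symbol and that symbol was on this list. This gave 25 probe sets for 9 of the 10 genes, out of 45101 probe sets on the array. Prdx5 was matched by no probe set under this rule and was not analysed here.

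Back skin, dermis included, was collected at postnatal day 2.5 from 6 female littermates of mixed FVB/N and C57BL/6 background, and the RNA of each was hybridised to an Affymetrix array. The 3 caNrf2 mice are labelled K5cre-caNrf2 (tg/tg) and have a constitutively active Nrf2 (caNrf2). The 3 control mice are labelled K5cre-wt (tg/wt), and K5cre stands in the genotype of both groups. Keratin 5 regulatory sequence drives Cre in basal keratinocytes and so in the epidermis and hair follicles that arise from them, whereas the RNA also came from dermis, fat and muscle. The sample descriptions of both groups include the word "weak", and the labels do not say what it refers to. In such bulk RNA, fewer cells of a type and less RNA per cell cannot be told apart.

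Thioredoxins are small proteins that reduce disulfides in other proteins. Thioredoxin reductases, which are selenoproteins, return them to the reduced state with electrons from NADPH. Peroxiredoxins remove hydrogen peroxide through a reactive cysteine and are then reduced by thioredoxin. When that cysteine is overoxidised, sulfiredoxin repairs it. Glutaredoxin does a related job with glutathione in place of thioredoxin. The cytosol holds Txn1, Txnrd1, Srxn1, Prdx2 and Glrx, mitochondria hold Txn2, Txnrd2 and Prdx3, and Prdx4 resides in the endoplasmic reticulum. Nrf2, bound to DNA with a small Maf protein at antioxidant response elements, is known to switch on several of the cytosolic genes.

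For 4 of the members the sequence upstream of the gene is shown, because Nrf2 acts through such sequence. Each stretch holds the 250 bases before a transcription start of RefSeq (build GRCm38.p6), 5′ to 3′ on the strand of the gene. Capitals mark matches to any of 3 motifs searched on both strands: TGACNNNGC, the core of the antioxidant response element, TGANTCAGC, the consensus for Nrf2 with small Maf, and TGANTCA, the AP-1-type motif contained in the second. Srxn1 and Txnrd1 stand for the risen genes, and Txn1 and Txnrd2 for members that did not pass the test. The motifs and the genes shown were chosen after the sequences and the values had been seen.
Srxn1, chr2:152105274-152105523, plus strand: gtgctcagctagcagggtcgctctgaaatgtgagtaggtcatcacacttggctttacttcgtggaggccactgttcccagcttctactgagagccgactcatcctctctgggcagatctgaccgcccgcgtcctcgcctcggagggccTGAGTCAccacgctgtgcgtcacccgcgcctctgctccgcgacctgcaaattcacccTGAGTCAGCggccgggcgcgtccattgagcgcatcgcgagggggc
Txnrd1, chr10:82858956-82859205, plus strand: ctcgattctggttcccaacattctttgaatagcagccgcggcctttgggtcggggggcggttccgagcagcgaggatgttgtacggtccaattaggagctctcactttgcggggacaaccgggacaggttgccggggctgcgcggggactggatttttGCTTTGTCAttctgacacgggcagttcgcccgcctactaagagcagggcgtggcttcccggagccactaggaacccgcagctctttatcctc
Txn1, chr4:57956412-57956661, minus strand: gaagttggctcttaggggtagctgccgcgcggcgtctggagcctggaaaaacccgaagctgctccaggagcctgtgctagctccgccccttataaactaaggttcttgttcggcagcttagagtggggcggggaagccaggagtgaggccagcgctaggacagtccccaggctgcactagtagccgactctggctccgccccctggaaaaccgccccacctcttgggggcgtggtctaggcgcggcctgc
Txnrd2, chr16:18426167-18426416, plus strand: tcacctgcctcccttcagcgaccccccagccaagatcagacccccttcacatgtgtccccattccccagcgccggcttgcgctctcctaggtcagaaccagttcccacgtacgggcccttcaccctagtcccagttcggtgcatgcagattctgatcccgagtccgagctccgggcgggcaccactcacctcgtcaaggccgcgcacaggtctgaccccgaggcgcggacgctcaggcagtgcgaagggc

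The Srxn1 stretch held TGAGTCAGC from 45 to 37 bases before the start, a match to TGANTCAGC, and a separate TGAGTCA from 102 to 96 bases before it. Of all 32851 upstream stretches of this length, 1.0% held TGANTCAGC and 6.7% held TGANTCA. RefSeq gave 3 starts for Txnrd1, and the stretch shown, the only one of the 3 with a match, held TGACNNNGC on the opposite strand, 92 to 84 bases before the start. That motif was found in 10.2% of all stretches, and 11.5% of 27025 genes held it in at least 1 of their stretches. A gene with 3 stretches, such as Txnrd1, has more places for a match than a gene with 1. The only other member with a match was Glrx, whose 2 overlapping stretches held 1 TGACTCA, of the AP-1 type. No match to the 3 motifs was found in these windows for Txn1, Txn2, Txnrd2, Prdx2, Prdx3 or Prdx4. A match describes the letters of the sequence and is not a measured binding site.

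Arrays were alike in scale, with medians between 80.7 and 81.9 intensity units (RMA values on a linear scale). Their log2 values correlated at 0.9961 to 0.9969 among caNrf2 arrays, 0.9978 to 0.9980 among control arrays and 0.9961 to 0.9972 between the groups. Array weights, lower for noisier arrays, were 0.520, 0.619 and 1.414 for caNrf2 arrays 1, 2 and 3, and 1.176 to 1.461 for control arrays. The number of arrays, 3 in each group, limits the precision. The brighter probe set of Nfe2l2, the gene of Nrf2, measured 964, 860 and 864 units on the caNrf2 arrays and 657, 674 and 683 on the control arrays. The groups did not overlap, yet at 0.41 ± 0.08 (log2 difference ± SE) the gene was not called (limma, adjusted p = 0.0812), and whether its probes read the transgene is not known from the sources used here. Keap1, whose protein marks Nrf2 for degradation, was not called either (0.28 ± 0.08, adjusted p = 0.349). Nqo1, the quinone reductase often used to mark Nrf2 activity, rose 12.2-fold (adjusted p = 3.38e-07). By the brightest probe set of each gene, basal keratinocyte markers, all 7 measured, had log2 differences of 0.03 to 0.12. Suprabasal markers, all 6, had 0.01 to 0.11, and none of these 13 genes passed on any probe set. Dimmer probe sets of basal markers ran from 0.00 (Krt14 1455573_at) to 0.23 (Trp63 1452027_a_at). Those of suprabasal markers ran from -0.01 (Lor 1420183_at) to 0.14 (Lor 1420184_at). Summed intensities of the basal markers were 36452 to 38589 on caNrf2 arrays and 35751 to 36954 on control arrays. Those of the suprabasal markers were 77348 to 81433 on caNrf2 arrays and 76345 to 78755 on control arrays, and both sums overlapped between the groups. The part that these small differences in keratinocyte markers play in the results below was not tested. The log2 difference between 3′ and 5′ probe sets of Gapdh, a measure of RNA integrity, was -0.237 to -0.222 on caNrf2 arrays and -0.215 to -0.182 on control arrays, and that of Actb was 0.443 to 0.536 on caNrf2 arrays and 0.492 to 0.499 on control arrays. Their part in the results was not tested. None of the measured markers of fibroblasts, adipocytes, skeletal muscle, macrophages or endothelium passed either.

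Within the thioredoxin system, the caNrf2 skin had more Srxn1 and more Txnrd1 mRNA than control skin. Glrx and the brighter probe set of Txn1 were higher by smaller amounts that did not pass the test, the dim probe set of Txn1 was lower without passing, and the mitochondrial members, Prdx2 and Prdx4 had differences near or slightly below 0. Of the 25 probe sets, 6 rose and 0 fell (limma, adjusted over all 45037 probe sets tested, threshold 0.05), and 12 had an unadjusted p under 0.05. The 6 were 3 of 4 probe sets of Srxn1 and all 3 of Txnrd1. Among all probe sets, 0.226% rose, 0.0133% fell and 8.86% had an unadjusted p under 0.05. The median log2 difference was 0.41 for the 13 probe sets of cytosolic members and -0.05 for the 8 of mitochondrial members, and the 4 of Prdx4 lay between -0.21 and 0.04. Taking the brightest probe set of each gene, the median of the 9 members was 0.05, beside -0.01 over 18193 genes.

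**Figure D1:**
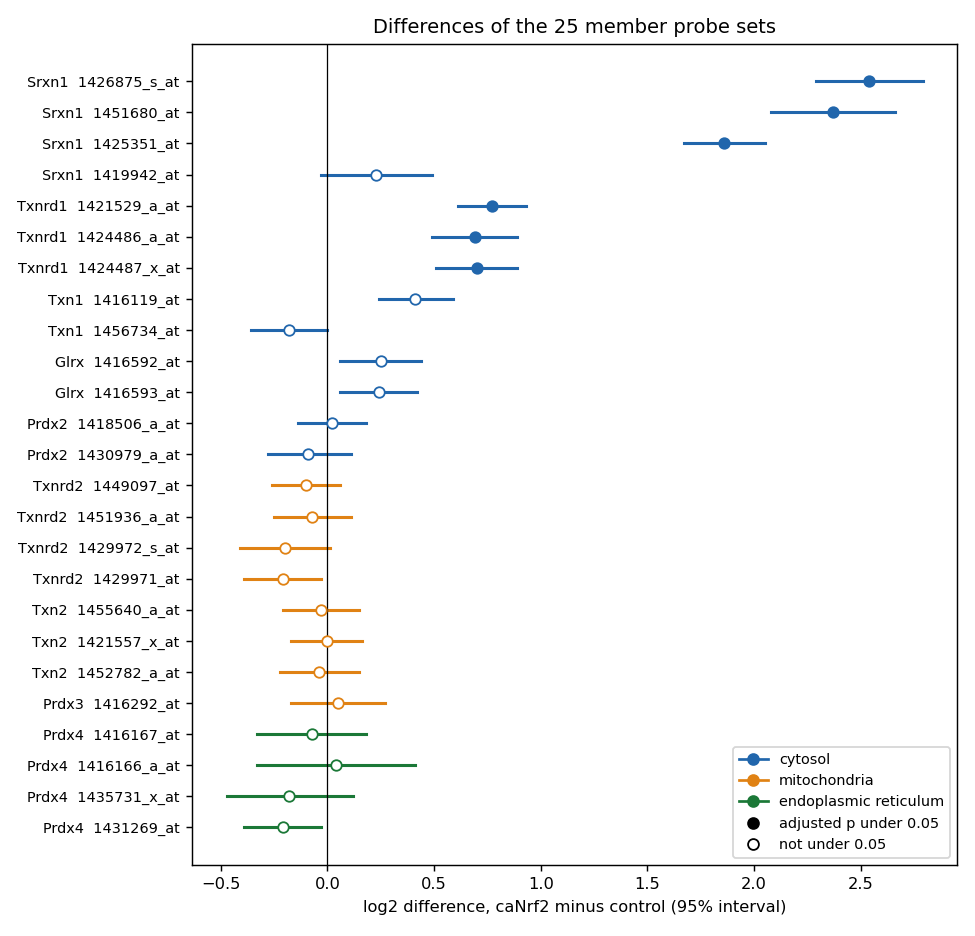
Log2 difference between caNrf2 and control skin for each of the 25 probe sets (x axis, 95% interval as a line), coloured by the compartment of the protein, with filled points where the adjusted p was under 0.05. The 6 filled points are Srxn1 (1.86 to 2.54) and Txnrd1 (0.69 to 0.77), and the probe sets of mitochondrial and endoplasmic reticulum members lie between -0.21 and 0.05.

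Srxn1, the repair enzyme of overoxidised peroxiredoxins, had the largest differences among the members. Its brightest probe set, 1426875_s_at, measured 931, 785 and 694 units in caNrf2 skin and 149, 124 and 140 units in control skin. Probe set 1451680_at measured 553, 621 and 442 units in caNrf2 skin and 121, 91.6 and 99.5 units in control skin. The values of 1425351_at were 297, 300.1 and 286 units in caNrf2 skin and 75.7, 78.0 and 90.6 units in control skin. In each of these the lowest caNrf2 array was at least 3 times as high as the highest control array. The folds were 5.81 (95% interval 4.89 to 6.90, adjusted p = 1.22e-06), 5.17 (4.22 to 6.33, adjusted p = 8.39e-06) and 3.62 (3.18 to 4.13, adjusted p = 1.68e-06). Ranked by log2 difference over the whole array, they stood at places 5, 6 and 14 of 45037.

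The fourth probe set of Srxn1 differed from the other 3. This one, 1419942_at, measured 166, 117 and 129 units in caNrf2 skin and 111, 121 and 116 units in control skin, and the groups overlapped. Its log2 difference of 0.23 ± 0.12 (95% interval -0.03 to 0.49) did not pass (adjusted p = 0.603), and its upper bound is below the lower bounds of the other 3, which were 1.67 or more. The brightest probe set carries the suffix _s_at, which Affymetrix gives to probe sets that can bind more than 1 transcript, but 1451680_at and 1425351_at do not.

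Txnrd1, the cytosolic thioredoxin reductase, rose on every probe set. Probe set 1421529_a_at measured 3477, 3605 and 3279 units in caNrf2 skin and 2044, 1995 and 2033 units in control skin. The dimmer 1424486_a_at gave 371, 417 and 354 units in caNrf2 skin and 255, 227 and 225 units in control skin. Values of 1424487_x_at were 257, 292 and 279 units in caNrf2 skin and 182, 157 and 170 units in control skin. No caNrf2 value overlapped a control value on any of the 3. The brightest rose 1.71-fold (95% interval 1.52 to 1.91, adjusted p = 0.000782), and the others 1.61-fold (1.41 to 1.85, adjusted p = 0.00727) and 1.63-fold (1.43 to 1.85, adjusted p = 0.00486), so the 3 intervals overlapped. Among control arrays the SD of the brightest was 25.7 units around a mean of 2024, against 164 around 3454 among caNrf2 arrays. Without control array 2 or 3, 1424486_a_at lost its call (adjusted p = 0.0637 and 0.0545), while its log2 difference stayed between 0.62 and 0.75 whichever array was left out.

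Txn1 encodes cytosolic thioredoxin, the substrate of Txnrd1. On its bright probe set, 1416119_at, it measured 6557, 6931 and 7527 units in caNrf2 skin and 5170, 5422 and 5163 units in control skin. All caNrf2 arrays were above all control arrays, by a fold of 1.33 (95% interval 1.18 to 1.5), yet the adjusted p of 0.0918 missed the threshold. The call depended on the setting: the adjusted p was 0.00597 when the spread was allowed to follow intensity, 0.0328 when dim probe sets were left out and 0.0380 with array weights. Over all alternatives except the test against a minimum fold it lay between 0.00597 and 0.378. The second probe set, 1456734_at, differed in the opposite direction. It measured 84.8, 88.9 and 77.6 units in caNrf2 skin and 99.97, 93.2 and 91.5 units in control skin, a log2 difference of -0.18 ± 0.08 (adjusted p = 0.560), again without overlap of the groups. With both averaged, Txn1 differed by 0.12 (adjusted p = 0.644), so the direction rests on which probe set is read.

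Glrx encodes glutaredoxin 1, which removes glutathione from protein cysteines. Probe set 1416592_at measured 2075, 2402 and 2490 units in caNrf2 skin and 1946, 1966 and 1927 units in control skin. Probe set 1416593_at measured 2042, 2283 and 2408 units in caNrf2 skin and 1948, 1917 and 1830 units in control skin. Both were higher on every caNrf2 array, with caNrf2 array 1 closest to the controls. The log2 differences of 0.25 ± 0.09 and 0.24 ± 0.08 did not pass (adjusted p = 0.434 and 0.445), and their 95% intervals ran to 0.44 and 0.42.

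**Figure D2:**
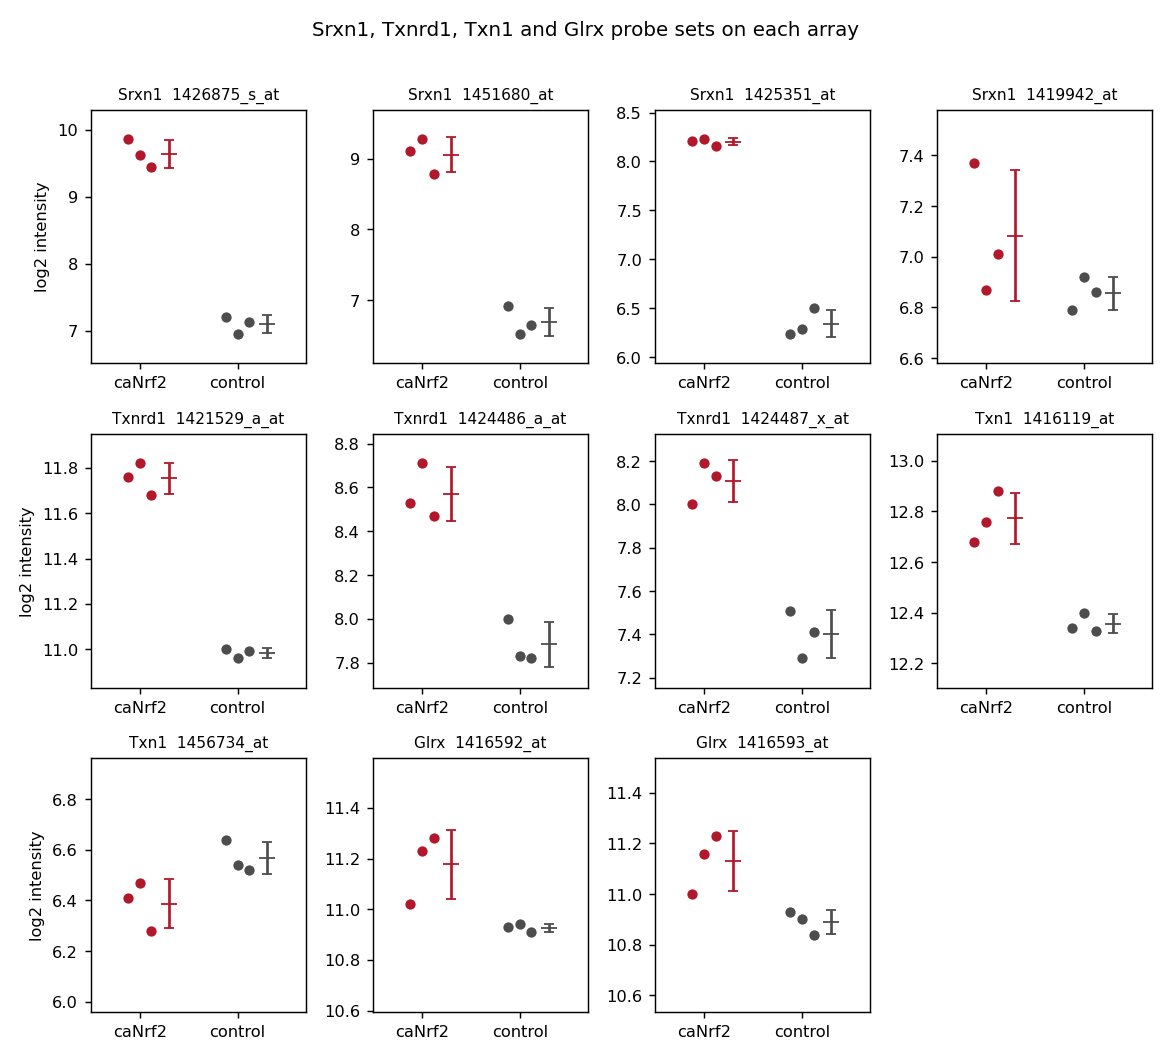
Log2 intensity of the 11 probe sets of Srxn1, Txnrd1, Txn1 and Glrx, 1 panel each, with 1 point per array and the mean ± SD beside the points (n = 3 caNrf2 and 3 control arrays). Each panel has its own y axis, which spans at least 1 log2 unit. The groups are apart in all panels except Srxn1 1419942_at, and Txn1 1456734_at is the only panel with caNrf2 below control.

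Mitochondria keep a thioredoxin system of their own, and none of its probe sets passed. Txnrd2, the mitochondrial thioredoxin reductase, measured 177, 191 and 174 units in caNrf2 skin and 198, 191 and 191 units in control skin on its brightest probe set, 1449097_at. The caNrf2 values were all lower, but the highest of them, 190.7, was next to the lowest control value, 190.8. The log2 difference was -0.10 ± 0.07 (adjusted p = 0.736), and the other 3 probe sets of Txnrd2 differed by -0.07, -0.20 and -0.21, none of which passed. All 4 upper interval bounds of Txnrd2, from -0.03 to 0.11, lay below the lowest lower bound of Txnrd1, 0.49.

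Txn2 encodes mitochondrial thioredoxin. Its brightest probe set, 1455640_a_at, measured 790, 895 and 920 units in caNrf2 skin and 906, 856 and 893 units in control skin. The groups overlapped on all 3 probe sets, whose log2 differences were -0.03, -0.0044 and -0.04 with intervals within -0.22 to 0.16. Prdx3, the mitochondrial peroxiredoxin, is read by 1 probe set, 1416292_at. It measured 855, 1074 and 1086 units in caNrf2 skin and 995, 922 and 988 units in control skin, and its log2 difference of 0.05 ± 0.10 (95% interval -0.17 to 0.27, adjusted p = 0.931) did not pass. The upper bound lay below the lower bounds of the 3 Txnrd1 probe sets, of which the lowest was 0.49. On caNrf2 array 1 the level was below all 3 controls, and on the other caNrf2 arrays above them.

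Cytosolic and mitochondrial forms can also be compared within each array. The log2 ratio of Txnrd1 to Txnrd2, brightest probe sets, was 0.91, 0.85 and 0.85 on caNrf2 arrays and -0.02, -0.01 and 0.03 on control arrays, each relative to the control mean. For Txn1 to Txn2 it was 0.48, 0.38 and 0.46 on caNrf2 arrays and -0.06, 0.09 and -0.04 on control arrays. Neither pair overlapped (exact two-sided permutation test, p = 0.1 for each, the smallest that 3 against 3 arrays can give, so the test cannot reach 0.05). With all probe sets of a gene averaged, the difference in the ratio was 0.87 for the reductases, as before, and 0.14 for the thioredoxins, against 0.44 on the brightest probe sets. These ratios were chosen with the values known.

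**Figure D3:**
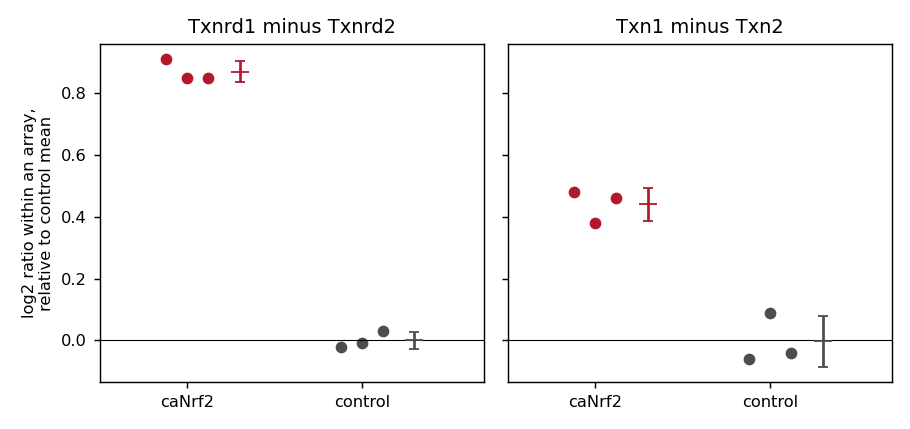
Log2 ratio of the cytosolic to the mitochondrial form within each array, relative to the control mean (y axis), for the thioredoxin reductases (left) and the thioredoxins (right), from the brightest probe set of each gene. Points are arrays and bars give the mean ± SD (n = 3). The caNrf2 arrays lie at 0.85 to 0.91 and at 0.38 to 0.48, the control arrays at -0.02 to 0.03 and at -0.06 to 0.09.

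Srxn1 repairs peroxiredoxins, and those analysed, Prdx2, Prdx3 and Prdx4, did not pass on any probe set. Prdx1, Prdx5 and Prdx6 were not analysed here, so nothing is known of them from these values. Prdx2, an abundant cytosolic peroxiredoxin of many cells and of erythrocytes above all, measured 5451, 5936 and 5592 units in caNrf2 skin and 5621, 5654 and 5436 units in control skin on 1418506_a_at. This was a fold of 1.02 with a 95% interval of 0.907 to 1.14 (adjusted p = 0.960). Its second probe set, 1430979_a_at, measured 581, 694 and 699 units in caNrf2 skin and 694, 707 and 690 units in control skin, so that only caNrf2 array 1 stood below the rest. By brightest probe sets, erythroid markers had a median log2 difference of -0.10 over the 6 measured genes, of which 5 were negative and 0 passed. The lowest was Hemgn at -0.24 ± 0.07 (adjusted p = 0.363), with every caNrf2 array below every control array. Of the 6 genes, 2 were dim, with a mean log2 under 5, among them the globin gene Hba-a1 at 4.14. Summed intensities of the 6 markers were 364 to 484 units on caNrf2 arrays and 420 to 516 on control arrays. The part of these markers in the Prdx2 values was not tested.

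Prdx4, which couples peroxide to disulfide formation in the endoplasmic reticulum, spread widely among replicates. Its brightest probe set, 1416167_at, measured 1073, 1291 and 1466 units in caNrf2 skin and 1405, 1398 and 1206 units in control skin. On 1416166_a_at it measured 599, 498 and 797 units in caNrf2 skin and 660, 679 and 491 units in control skin. The groups overlapped on both, and the log2 differences of -0.07 ± 0.11 and 0.04 ± 0.17 did not pass (adjusted p = 0.892 and 0.971). The interval of the second, -0.33 to 0.41, was the widest of the 25 probe sets. A dimmer probe set, 1435731_x_at, differed by -0.18 ± 0.13. The last, 1431269_at, measured 9.32, 10.01 and 8.62 units in caNrf2 skin and 10.2, 11.3 and 10.8 units in control skin. At a mean log2 level of 3.32 it lay within the range of 2.62 to 3.95 that probe sets of 3 Y-linked genes had in these female animals, so it gives no usable level.

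**Figure D4:**
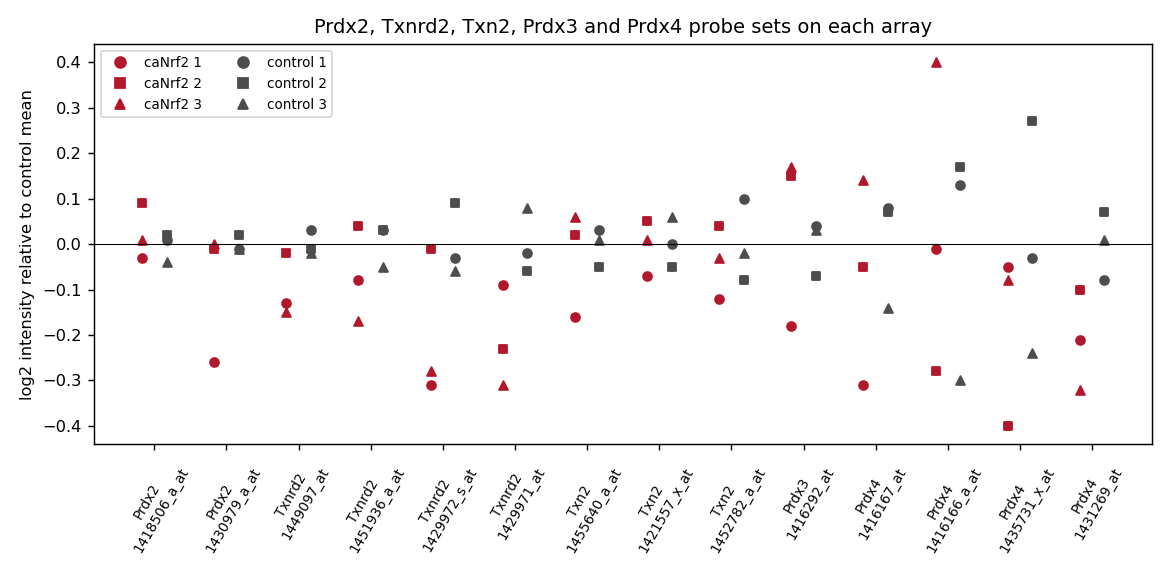
Log2 intensity of the 14 probe sets of Prdx2, Txnrd2, Txn2, Prdx3 and Prdx4, relative to the control mean of each probe set (y axis), with caNrf2 arrays left of control arrays and 1 symbol per array. All points lie between -0.4 and 0.4. The caNrf2 array 1 is the lowest caNrf2 array for the 3 probe sets of Txn2, both of Prdx2, the one of Prdx3, Prdx4 1416167_at and Txnrd2 1429972_s_at.

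Whether the groups overlap gives a count that needs its background. Of the 25 probe sets, 9 had every caNrf2 array above every control array, namely 3 of Srxn1, 3 of Txnrd1, 1 of Txn1 and 2 of Glrx. Another 4 had every caNrf2 array below, 1 of Txn1, 2 of Txnrd2 and the dim one of Prdx4. Over all probe sets tested the shares were 6.90% above and 7.28% below.

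Other genes of the redox system were read from lists. Among 11 measured relatives of the members (glutaredoxins, sestrins, thioredoxin-like and inhibitory proteins and further reductases), 1 rose and 0 fell by the brightest probe set. Over all 18193 genes 0.302% rose, and 0.324% changed in either direction. Prdx1 and Prdx6, also on the list, were not analysed here. The relative that rose was Gsr, the reductase that recycles glutathione and reduces the glutaredoxin branch. Gsr measured 590, 670 and 580 units in caNrf2 skin and 388, 367 and 390 units in control skin on 1421816_at, a 1.6-fold rise (adjusted p = 0.00442), and 1.56-fold on a second probe set (adjusted p = 0.00314). The median of this list was 0.05. By brightest probe sets, Glrx3, a glutaredoxin, had the next smallest p after Gsr. It differed by 0.16 ± 0.08 without overlap of the groups, and did not pass (adjusted p = 0.587). Txnip, the protein that binds and inhibits thioredoxin, differed by 0.05 ± 0.12 (adjusted p = 0.944). Txnrd3, a further thioredoxin reductase, differed by -0.07 ± 0.08 (adjusted p = 0.853). Neither passed.

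None of the 9 measured substrates and partners of thioredoxin passed (median 0.03). By brightest probe sets, the smallest p in that list belonged to Rrm2b, a ribonucleotide reductase subunit, at 0.12 ± 0.09 (adjusted p = 0.723), and to Msrb1, a methionine sulfoxide reductase, at -0.11 ± 0.08 (adjusted p = 0.742). A dimmer probe set of Rrm2b, 1437222_x_at, differed in the opposite direction (-0.20 ± 0.12, adjusted p = 0.662). Of 12 genes of disulfide formation in the endoplasmic reticulum, where Prdx4 acts, 0 passed (median 0.04), with Erp44 at 0.16 ± 0.07 (adjusted p = 0.561) and Tmx1 at 0.12 ± 0.09 (adjusted p = 0.742). Thioredoxin reductases need selenocysteine, and of 6 genes for its synthesis and insertion 0 passed (median 0.05). Sephs1 differed by 0.11 ± 0.07 (adjusted p = 0.690) and Pstk by -0.06 ± 0.09 (adjusted p = 0.870). The mitochondrial redox list of 4 genes also holds Gsr. By brightest probe sets, the other 3 were Nnt at -0.02 ± 0.08, Idh2 at 0.02 ± 0.12 and Sod2 at 0.01 ± 0.07, and none of those passed. A dimmer probe set of Sod2, 1454976_at, was higher by 0.21 ± 0.08 without overlap of the groups, and did not pass (adjusted p = 0.519). Other dimmer probe sets of Sod2 differed by -0.00 and 0.09. Nnt, which makes mitochondrial NADPH, had 1264, 1149 and 1343 units in caNrf2 skin and 1204, 1288 and 1324 units in control skin. General mitochondrial genes, 10 in number, had a median of 0.04 with 0 called, among them Vdac1 at 0.11 ± 0.07 (adjusted p = 0.683) and Ndufs1 at 0.10 ± 0.08 (adjusted p = 0.758). By brightest probe sets, 6 of the 10 were positive and 4 negative. Dimmer probe sets of Vdac1 differed by 0.14 to 0.21. Tfam differed by 0.08 on its brightest probe set and by 0.22 ± 0.08 on the dimmer 1456215_at (adjusted p = 0.483). None of these passed.

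The genes whose levels followed Srxn1 and Txnrd1 most closely over the 6 arrays were compared among 11752 genes at or above the median level. For Srxn1 the highest Pearson correlations were with Pgd, a dehydrogenase of the pentose phosphate pathway that makes NADPH (0.9956), Gstm1 (0.9952) and Gstm3 (0.9951), both glutathione S-transferases, Abcc4, an export pump (0.9950), and Txnrd1 (0.9949). For Txnrd1 they were with Gstm1 (0.9996), Pgd (0.9983), Gpx2, a glutathione peroxidase (0.9968), Abcc4 (0.9967) and Gsta3 (0.9956). The 6 arrays fall into 2 groups of 3, and each of these genes was itself higher in caNrf2 skin, so the values are given as a description. The 7 genes of both sets rose, with log2 differences from 0.57 for Gstm3 to 5.04 for Gsta3, and Txnrd1 at 0.77 among them.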

How the data were processed

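RNA of 6 arrays (3 caNrf2, 3 control) was labelled from 2 µg each, per the labels' protocols. The deposited values are intensities on a linear scale, made by the authors with RMA, per the submitters' processing notes. RMA as commonly run corrects background, normalises by quantiles and summarises each probe set. No label names a version, a program or a filter. Such values can understate folds of dim probe sets and hide a shift shared by most genes.

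Values were converted to log2. Leaving out 64 Affymetrix controls left 45037 probe sets, of which 34945 carry 1 gene symbol, 932 several and 9160 none. Only the first kind was named, so Prdx1, which shares its probe sets with another symbol, is not reported. The comparison used lmFit and eBayes of limma 3.58.1 (R 4.3.3; no intensity trend, 4 residual degrees of freedom, no block), Benjamini-Hochberg adjustment over all probe sets and a threshold of 0.05. SE and 95% intervals come from that fit. For a count per gene the brightest probe set was used.

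No pairing was assumed. Members, lists and motifs were chosen with earlier results of these data known. Genes named are all members, label checks, list members called or with the 2 smallest p by brightest probe set, and the 5 nearest in correlation. Txnip, Txnrd3, Tfam, single cell type markers and the remaining genes of the mitochondrial redox list were added outside that rule. Alternatives were a replicate block, 3 re-normalisations, a pseudocount of 16, a filter on dim probe sets, 1 value per gene, trend, robust and weighted variance models, a test against a fold of 1.2, and leaving out each array. Upstream sequences are from RefSeq, and the 9 members with a probe set were all found there.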

Additional observations from a re-analysis of the deposited data

How the results depend on the processing

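The call of 6 member probe sets stayed at 6 with the replicate block, which changed no call among the members, and under every re-normalisation, the pseudocount and robust variances. It was 7, with Txn1 1416119_at added, under the intensity trend, array weights and the filter on dim probe sets, and 4 in the test against a fold of 1.2, where 2 Txnrd1 probe sets dropped out. With 1 value per gene it was 2, for Srxn1 and Txnrd1, both with the brightest and with the mean of probe sets. Leaving out single arrays gave 5 to 6. Over all probe sets the 108 calls became 97 with the replicate block, 68 with the brightest probe set per gene (fewer features), 63 with the mean per gene, 49 against a fold of 1.2, 64 to 136 without single arrays, and 161 with the intensity trend, 138 with array weights and 133 with the filter on dim probe sets. The lowest of the counts without single arrays, 69, 64 and 67, were those without control array 1, 2 and 3. Of the other redox genes 1 was called, Gsr, and 0 were called against a fold of 1.2.

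Signs turned only for members with differences near 0, none of them called. These were Txn2 1421557_x_at with median centring (0.0020), Prdx4 1416166_a_at with a further quantile normalisation (-0.0018), and with array weights Txn2 1455640_a_at (0.0025) and Prdx4 1416167_at (0.01). The mean of both Prdx2 probe sets was -0.03. Without single arrays the ranges were -0.07 to 0.04, -0.03 to 0.03 and -0.08 to 0.01 for the 3 Txn2 probe sets, -0.18 to 0.05 and -0.14 to 0.20 for the 2 bright ones of Prdx4, -0.01 to 0.05 for Prdx2 1418506_a_at and -0.01 to 0.16 for Prdx3. The cause of these turns was not tested. Under re-normalisation the median over all probe sets was -0.005 to 0.002. Same-numbered arrays share only a number: their deviations from the group means correlated at -0.212, -0.021 and 0.098. Averaging probe sets in the isoform ratios was chosen after seeing the data. Signal over background limits Prdx4 1431269_at.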
